A study of Mus musculus with 25 samples.

Results

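Interferon-stimulated genes are genes that cells switch on when interferon reaches them, and 39 of them were followed across 25 RNA libraries of mouse Achilles tendon. The 39 symbols came from a list that was chosen with earlier results of these data known. They were looked up among the 55487 genes of the deposited table, where each was found once. All 39 passed the filter on low counts, as did 19155 genes in all. The libraries fell into 4 groups of mice aged 3 months, namely 6 wheel-running AMPKcKO mice (3 male and 3 female), 6 AMPKcKO mice at cage activity (3 male and 3 female), 6 wheel-running wild-type mice (3 male and 3 female) and 7 wild-type mice at cage activity (3 male and 4 female). AMPKcKO is a conditional knock-out, written cKO here, and wild type is written WT. The study's title names the loss of AMPKα1, the product of Prkaa1 and part of AMPK, a kinase that senses low cellular energy. The labels used here do not name the driver of the Cre recombinase, the strain, or how long the mice ran, and the age was the same in every group.

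Reads were counted in whole tendon, and p-values here measure the spread between these libraries. Whole tendon holds several cell types, so fewer cells of a type and less RNA per cell cannot be told apart. Library totals ran from 13193228 to 45724243 counts, with a median of 24538109. Prkaa1 had lowest, median and highest levels of 16.2, 18.7 and 22.6 CPM (read counts scaled to a fixed library size) in cKO runners, 13.9, 17.8 and 21.2 CPM in cKO cage mice, 15.6, 23.4 and 31.1 CPM in WT runners and 13.4, 23.1 and 31.2 CPM in WT cage mice. Its ranges overlapped, and its log2 fold change of cKO over WT, averaged over both activities, was -0.36 (SE 0.12, edgeR adjusted p = 0.981). Cre counts were 7 to 42 in 11 of the 12 cKO libraries and 0 in the 13 WT libraries. In the library labelled cKO cage female replicate 3, Cre was at 0 against the label, and WT running male replicate 2 had 119 CPM of eGFP. Markers of tendon cells summed to between 4752 and 27375 CPM, and 17 skeletal muscle markers summed to between 36299 and 188377 CPM, so every library also held muscle RNA. Another name prefix than that of the rest was carried by 2 libraries, female replicate 4 of the WT cage group and male replicate 3 of the cKO cage group.

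Interferons are secreted signals of viral and bacterial infection. Type I interferons bind a receptor that activates transcription factors, among them STAT2, which joins IRF9 in a complex that binds a DNA element called the interferon-stimulated response element. Interferon gamma acts mainly through another element, the gamma-activated site. The genes switched on this way detect foreign nucleic acids, block viral RNA and protein synthesis, trap virus particles, attack membranes around intracellular bacteria, and adjust the interferon signal itself. Many of them keep a low level in tissues without infection.

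The promoters of the members were searched for the cores of these 2 elements. A promoter sequence was held by RefSeq (build GRCm38.p6) for 27 of the 39 members, each covering 250 bases before and 50 bases after the start. Both strands were searched for the core of the response element, GAAA followed by any 2 bases and another GAAA. It was present in 18 of these 27 members (66.7%), against 1079 of 27025 genes with such a sequence (3.99%). The gamma-activated site core, TTCNNNGAA, reads the same on both strands. It was present in 7 of the 27 members (25.9%), against 2582 of the 27025 genes (9.55%), and 5 members held both cores. All 6 guanylate-binding and immunity-related GTPases held the response element core, as did 3 of the 4 IFIT genes and both RNA sensors with a sequence. Irf7, Irf9, Oasl1, Oasl2, Dtx3l, Ifi44 and Xaf1 held neither. A match describes the letters in this window alone. The members were listed as interferon-stimulated genes, so their share with a core describes the list and is no test. Whether the cores have a part in how the members varied between mice was not tested. The stretches below lie upstream of the RefSeq start and outside every exon of the GENCODE annotation, read in the direction of the gene, with the response element core on either strand in capitals.
Stat2, chr10:128270251-128270310, plus strand: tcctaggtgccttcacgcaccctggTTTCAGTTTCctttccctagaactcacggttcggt
Isg15, chr4:156200850-156200921, minus strand: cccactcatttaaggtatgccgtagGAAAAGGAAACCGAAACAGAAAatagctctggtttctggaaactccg
Ifit1, chr19:34640760-34640838, plus strand: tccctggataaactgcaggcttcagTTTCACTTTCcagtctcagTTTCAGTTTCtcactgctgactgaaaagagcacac
Ifit3, chr19:34583382-34583441, plus strand: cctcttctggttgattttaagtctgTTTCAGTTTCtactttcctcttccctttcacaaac
Ifit3b, chr19:34607778-34607837, plus strand: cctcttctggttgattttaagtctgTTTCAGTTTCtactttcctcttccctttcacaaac
Oas1a, chr5:120907526-120907570, minus strand: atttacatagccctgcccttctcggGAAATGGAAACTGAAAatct
Oas3, chr5:120777700-120777759, minus strand: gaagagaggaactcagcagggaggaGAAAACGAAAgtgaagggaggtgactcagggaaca
Rsad2, chr12:26456538-26456597, minus strand: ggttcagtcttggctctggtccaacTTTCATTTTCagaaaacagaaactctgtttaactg
Bst2, chr8:71537562-71537627, minus strand: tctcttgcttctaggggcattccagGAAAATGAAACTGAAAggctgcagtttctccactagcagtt
Gbp7, chr3:142530258-142530317, plus strand: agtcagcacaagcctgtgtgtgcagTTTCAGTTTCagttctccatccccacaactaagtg
Igtp, chr11:58199497-58199555, plus strand: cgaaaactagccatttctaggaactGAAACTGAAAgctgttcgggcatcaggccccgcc
Irgm2, chr11:58214888-58214947, plus strand: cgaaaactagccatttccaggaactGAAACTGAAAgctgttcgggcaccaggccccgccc
Trim30a, chr7:104465195-104465254, minus strand: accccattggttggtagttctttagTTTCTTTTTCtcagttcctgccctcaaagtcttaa
Isg15 carried 3 overlapping copies of the core, Ifit1 carried 2 apart from each other, and Oas1a and Bst2 each carried 2 that overlap. The stretch shown for Ifit3 and for its neighbour Ifit3b is the same 60 bases, and those of the neighbours Igtp and Irgm2 are nearly alike. The core nearest to the start began 14 bases before it in Oas1a and 222 bases before it in Stat2.

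Many of the members sit in gene clusters. In GENCODE M21 (GRCm38) the OAS genes and their relatives Oasl1 and Oasl2 are the 6 members on chromosome 5, from Oasl2 at chr5:114896936-114912234 to Oas1a at chr5:120896256-120907521. The 4 IFIT genes lie on chromosome 19, between Ifit2 at chr19:34550694-34576419 and Ifit1 at chr19:34640871-34650009. Gbp2, Gbp3 and Gbp7 lie near each other on chromosome 3, as do Ifi27 and Ifi27l2a on chromosome 12. Chromosome 16 holds Mx1 and Mx2 near each other. Parp9, Parp14 and Dtx3l lie together far from these on the same chromosome, and Rtp4 lies apart from both sets. Copies this close in sequence share reads. Of the 50-base stretches of their transcripts, Oas1a shared 57.6% with Oas1g, Ifit3 shared 51.2% with Ifit3b, and Igtp shared 11.8% with Irgm2, so the division of reads within these pairs is uncertain. The strand of the libraries is not given in the sources used here, so reads of Parp9 and Dtx3l, which overlap on opposite strands over 9.40% and 8.0% of their exon length, cannot be told apart there. Ifi35 likewise has 16.8% of its exon length overlapped by Gm11626 on the opposite strand.

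Compared per transcript length, in the deposited FPKM (fragments per kilobase of transcript, scaled to library size), the members covered a wide range of levels. Ifi27l2a and Ifi27, which encode small membrane proteins of mitochondria, stood highest, with medians over 25 libraries of 54.3 and 43.7 FPKM. Another 31 members had medians between 1 and 10 FPKM, led by Ifi35 at 9.05 FPKM, Irgm1 at 7.31 FPKM and Stat2 at 6.49 FPKM. The last 6 were under 1 FPKM, namely Zbp1 at 0.97 FPKM, Oas1a at 0.59 FPKM, Oas1b at 0.58 FPKM, Ifi44 at 0.41 FPKM, Oasl1 at 0.3 FPKM and Oas3 at 0.13 FPKM. The median over the 39 members was 3.60 FPKM and the median over all 19155 tested genes was 3.57 FPKM. The libraries of Ifi27, with 19.9 to 138.9 FPKM, did not overlap those of the next member, Ifi35, with 6.15 to 17.11 FPKM. From Ifi35 down, neighbours in this order lay within the range of each other's libraries. An example is Stat2, with 2.93 to 8.57 FPKM over the libraries, and Parp14, with 3.85 to 14.86 FPKM.

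**Figure D1:**
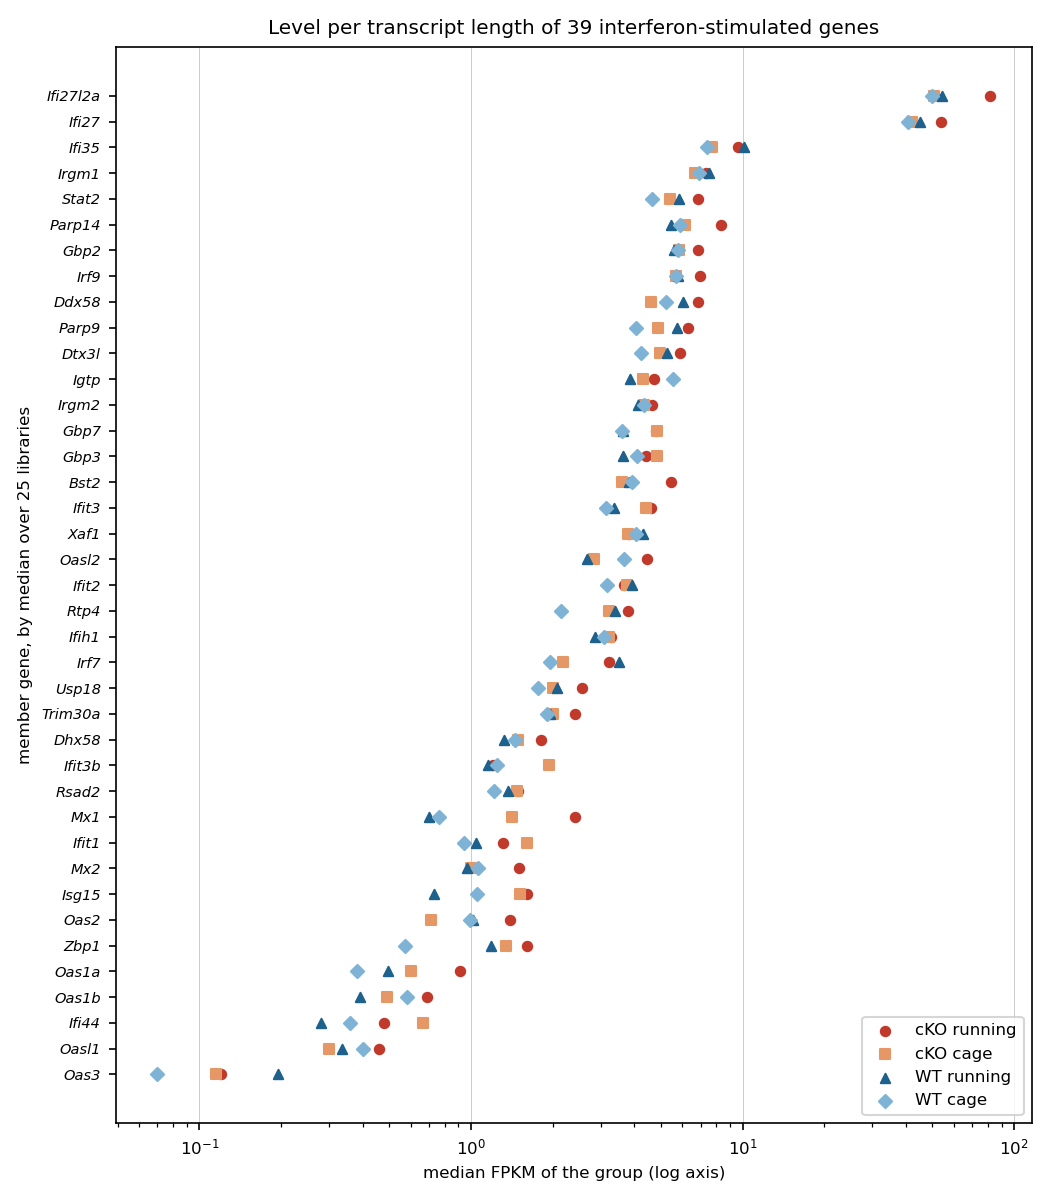
Median FPKM of each group (log axis) for the 39 members, ordered by their median over 25 libraries, with 1 marker for each of the 4 groups. Ifi27l2a and Ifi27 stand apart at medians of 54.3 and 43.7 FPKM, 31 members lie between 1 and 10 FPKM, and Oas3 lies lowest in each group.

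For levels within a gene, the lowest, median and highest library of each group is given below in CPM scaled by library size factors. The cytosolic RNA sensors come first, since they start the response to viral RNA. Ifih1, which encodes the sensor of long double-stranded RNA, had 9.49, 11.6 and 14.0 CPM in cKO runners, 10.5, 12.9 and 15.3 in cKO cage mice, 5.53, 10.3 and 12.1 in WT runners and 11.5, 12.4 and 15.0 in WT cage mice. Ddx58, which encodes the sensor RIG-I for uncapped RNA ends, had 13.9, 16.9 and 22.3 CPM in cKO runners, 11.8, 14.2 and 18.7 in cKO cage mice, 12.8, 16.4 and 21.2 in WT runners and 12.8, 15.2 and 20.2 in WT cage mice. Both were steady from mouse to mouse, with standard deviations of log2 CPM within groups of 0.26 and 0.24, apart from a low Ifih1 value in WT running female replicate 2. Dhx58, a relative that tunes both sensors, had 1.41, 2.53 and 3.50 CPM in cKO runners, 1.02, 1.93 and 2.84 in cKO cage mice, 0.929, 2.21 and 4.13 in WT runners and 1.33, 1.68 and 3.61 in WT cage mice. Zbp1, a sensor of left-handed nucleic acid that can trigger cell death, had 0.707, 1.23 and 2.73 CPM in cKO runners, 0.564, 1.40 and 3.17 in cKO cage mice, 0.791, 1.39 and 4.08 in WT runners and 0.559, 0.876 and 2.88 in WT cage mice. All 4 groups overlapped for each of these sensors, and the highest Zbp1 and Dhx58 values both came from WT running male replicate 3.

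The transcription factors of the response had median counts per library of 115 for Irf7, 316 for Irf9 and 331 for Stat2. Irf7, which drives production of type I interferons, had 3.09, 5.10 and 6.65 CPM in cKO runners, 2.77, 4.50 and 7.86 in cKO cage mice, 3.95, 5.14 and 7.79 in WT runners and 2.21, 3.32 and 6.45 in WT cage mice. Irf9, the DNA-binding partner of STAT2, had 11.1, 12.0 and 16.3 CPM in cKO runners, 7.69, 12.0 and 17.9 in cKO cage mice, 8.52, 10.9 and 13.2 in WT runners and 9.08, 11.7 and 16.3 in WT cage mice. Stat2, the transactivating partner, had 12.7, 14.2 and 15.9 CPM in cKO runners, 8.40, 13.4 and 17.8 in cKO cage mice, 9.23, 10.002 and 16.0 in WT runners and 9.05, 11.6 and 18.8 in WT cage mice. The 6 cKO runners were close together in Stat2, while each of the other groups spread more widely. For the ISG15 system, Isg15 itself, a ubiquitin-like protein that is attached to other proteins, had 0.244, 0.681 and 1.36 CPM in cKO runners, 0.487, 0.838 and 1.33 in cKO cage mice, 0, 0.340 and 1.89 in WT runners and 0.0337, 0.553 and 1.72 in WT cage mice. Usp18, the protease that removes it and that also damps the type I receptor, had 2.20, 2.52 and 3.50 CPM in cKO runners, 1.65, 2.40 and 3.88 in cKO cage mice, 0, 2.32 and 2.54 in WT runners and 1.15, 1.92 and 5.20 in WT cage mice. Isg15 had a median of 14 counts per library, and its 2 zeros were in WT running female replicate 2 and WT running male replicate 3. A count of 0 allows up to 0.0911 CPM in WT running female replicate 2 and up to 0.195 CPM in WT running male replicate 3 (3 counts of the total, for counting error alone).

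The effector genes follow, with the IFIT family first. Ifit1, which binds the ends of foreign RNA, had 1.51, 2.68 and 4.07 CPM in cKO runners, 1.79, 4.14 and 6.90 in cKO cage mice, 1.04, 2.24 and 3.34 in WT runners and 1.26, 2.46 and 8.60 in WT cage mice. Ifit3, its partner in the same complex, had 4.48, 5.80 and 10.5 CPM in cKO runners, 3.64, 7.69 and 14.9 in cKO cage mice, 4.33, 4.59 and 9.03 in WT runners and 3.88, 5.10 and 13.9 in WT cage mice. In both genes the top values came from WT cage male replicate 2 and the library labelled cKO cage female replicate 3. Ifit2 ranged over all libraries from 6.71 to 17.2 CPM, and Ifit3b from 0.347 CPM in cKO running male replicate 2 to 6.23 CPM in WT cage male replicate 2. Rsad2, which encodes viperin, an enzyme that makes a chain-terminating nucleotide, had 2.37, 4.92 and 6.14 CPM in cKO runners, 3.57, 5.95 and 10.4 in cKO cage mice, 3.92, 5.03 and 6.41 in WT runners and 2.05, 4.86 and 11.5 in WT cage mice. Bst2, which encodes tetherin, the protein that holds budding virus at the cell surface, had 2.51, 2.86 and 3.57 CPM in cKO runners, 1.54, 2.32 and 3.84 in cKO cage mice, 0.519, 2.39 and 3.82 in WT runners and 1.90, 2.19 and 3.95 in WT cage mice. Again the groups overlapped, and the top Rsad2 values came from the same pair of libraries as for Ifit1.

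Mx1 and Mx2 encode dynamin-like GTPases that act against viruses, and the annotation lists Mx2 as a polymorphic pseudogene. Mx1 had 1.20, 1.88 and 3.96 CPM in cKO runners, 0.465, 1.29 and 2.47 in cKO cage mice, 0.275, 0.983 and 2.37 in WT runners and 0.168, 0.876 and 3.48 in WT cage mice. Mx2 had 0.926, 1.38 and 2.16 CPM in cKO runners, 0.924, 1.81 and 2.36 in cKO cage mice, 0, 1.35 and 1.85 in WT runners and 1.11, 1.40 and 4.69 in WT cage mice. In the OAS family, whose enzymes make the signal that activates RNase L, Oas1a had 0.743, 1.23 and 2.52 CPM in cKO runners, 0.615, 1.000 and 1.61 in cKO cage mice, 0.550, 0.851 and 2.32 in WT runners and 0.158, 0.614 and 1.98 in WT cage mice. For Oas2 the values were 2.67, 4.75 and 5.56 CPM in cKO runners, 2.31, 3.09 and 4.48 in cKO cage mice, 1.68, 3.49 and 4.60 in WT runners and 1.82, 2.97 and 5.42 in WT cage mice. Oasl2, an OAS-like protein, had 4.72, 5.36 and 6.03 CPM in cKO runners, 3.33, 5.31 and 8.97 in cKO cage mice, 1.74, 4.14 and 10.3 in WT runners and 3.40, 5.55 and 9.93 in WT cage mice. Of the other family members Oas1b, also listed as a polymorphic pseudogene, ran from 0.397 to 1.81 CPM over all libraries. Oasl1 ran from 0 to 2.50 CPM and Oas3 from 0 to 1.73 CPM, with medians of 11 and 8 counts per library. Oasl1, Usp18 and Mx2 were at 0 in WT running female replicate 2, which had 32942246 counts, and Oas3 was at 0 in WT cage female replicate 4, where a count of 0 allows up to 0.227 CPM.

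Guanylate-binding proteins and immunity-related GTPases attack the vacuoles of intracellular microbes and respond most to interferon gamma. Gbp2 had 9.98, 12.4 and 22.8 CPM in cKO runners, 8.66, 14.6 and 21.5 in cKO cage mice, 7.58, 13.2 and 18.3 in WT runners and 10.1, 14.4 and 16.6 in WT cage mice. Gbp3 had 7.01, 8.71 and 14.7 CPM in cKO runners, 8.0, 12.2 and 15.9 in cKO cage mice, 5.37, 8.91 and 11.6 in WT runners and 7.27, 10.5 and 15.3 in WT cage mice. Gbp7 had 9.70, 15.6 and 23.1 CPM in cKO runners, 16.0, 17.6 and 21.1 in cKO cage mice, 10.2, 14.1 and 15.8 in WT runners and 9.71, 14.6 and 20.3 in WT cage mice. In Gbp7 the cKO runners spread the most widely and held both the highest and the lowest library. Irgm1, a regulator of the other immunity-related GTPases, had 10.1, 13.6 and 16.9 CPM in cKO runners, 12.6, 14.8 and 18.2 in cKO cage mice, 8.68, 14.5 and 16.6 in WT runners and 10.5, 12.9 and 17.1 in WT cage mice. Igtp, a further immunity-related GTPase, had 5.99, 7.47 and 12.2 CPM in cKO runners, 7.33, 8.58 and 9.70 in cKO cage mice, 5.73, 6.71 and 11.8 in WT runners and 4.66, 8.91 and 13.2 in WT cage mice. Irgm2, another regulator, ran from 9.24 to 21.5 CPM over all libraries.

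Among the remaining members, Parp14, an ADP-ribosyltransferase, had 29.5, 32.7 and 44.8 CPM in cKO runners, 29.2, 32.4 and 42.9 in cKO cage mice, 27.9, 35.2 and 39.6 in WT runners and 25.8, 31.1 and 51.9 in WT cage mice. Its relative Parp9 and the ubiquitin ligase Dtx3l, which form a complex, ran from 9.95 to 23.3 CPM and from 17.7 to 31.8 CPM over all libraries. Xaf1, an antagonist of an apoptosis inhibitor, had 2.61, 3.52 and 4.11 CPM in cKO runners, 2.68, 4.18 and 5.39 in cKO cage mice, 2.75, 3.48 and 5.13 in WT runners and 2.73, 3.25 and 4.85 in WT cage mice. Rtp4, a receptor transporter protein, had 1.81, 2.86 and 3.53 CPM in cKO runners, 1.74, 3.08 and 4.19 in cKO cage mice, 1.25, 2.26 and 3.15 in WT runners and 0.948, 2.07 and 4.69 in WT cage mice. Ifi27 had 19.1, 23.8 and 46.4 CPM in cKO runners, 15.1, 19.9 and 29.4 in cKO cage mice, 11.8, 20.3 and 26.1 in WT runners and 15.3, 19.5 and 40.2 in WT cage mice. Ifi27l2a had 4.64, 18.7 and 66.2 CPM in cKO runners, 5.50, 13.4 and 25.3 in cKO cage mice, 3.64, 13.6 and 17.9 in WT runners and 4.19, 12.8 and 16.6 in WT cage mice. The highest values of both genes, 46.4 and 66.2 CPM, were in cKO running male replicate 2. Ifi35 ran from 6.08 to 12.4 CPM, Ifi44, a cytoplasmic protein of unclear action, from 0.424 to 3.27 CPM, and Trim30a, a ubiquitin ligase, from 4.66 to 11.0 CPM.

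**Figure D2:**
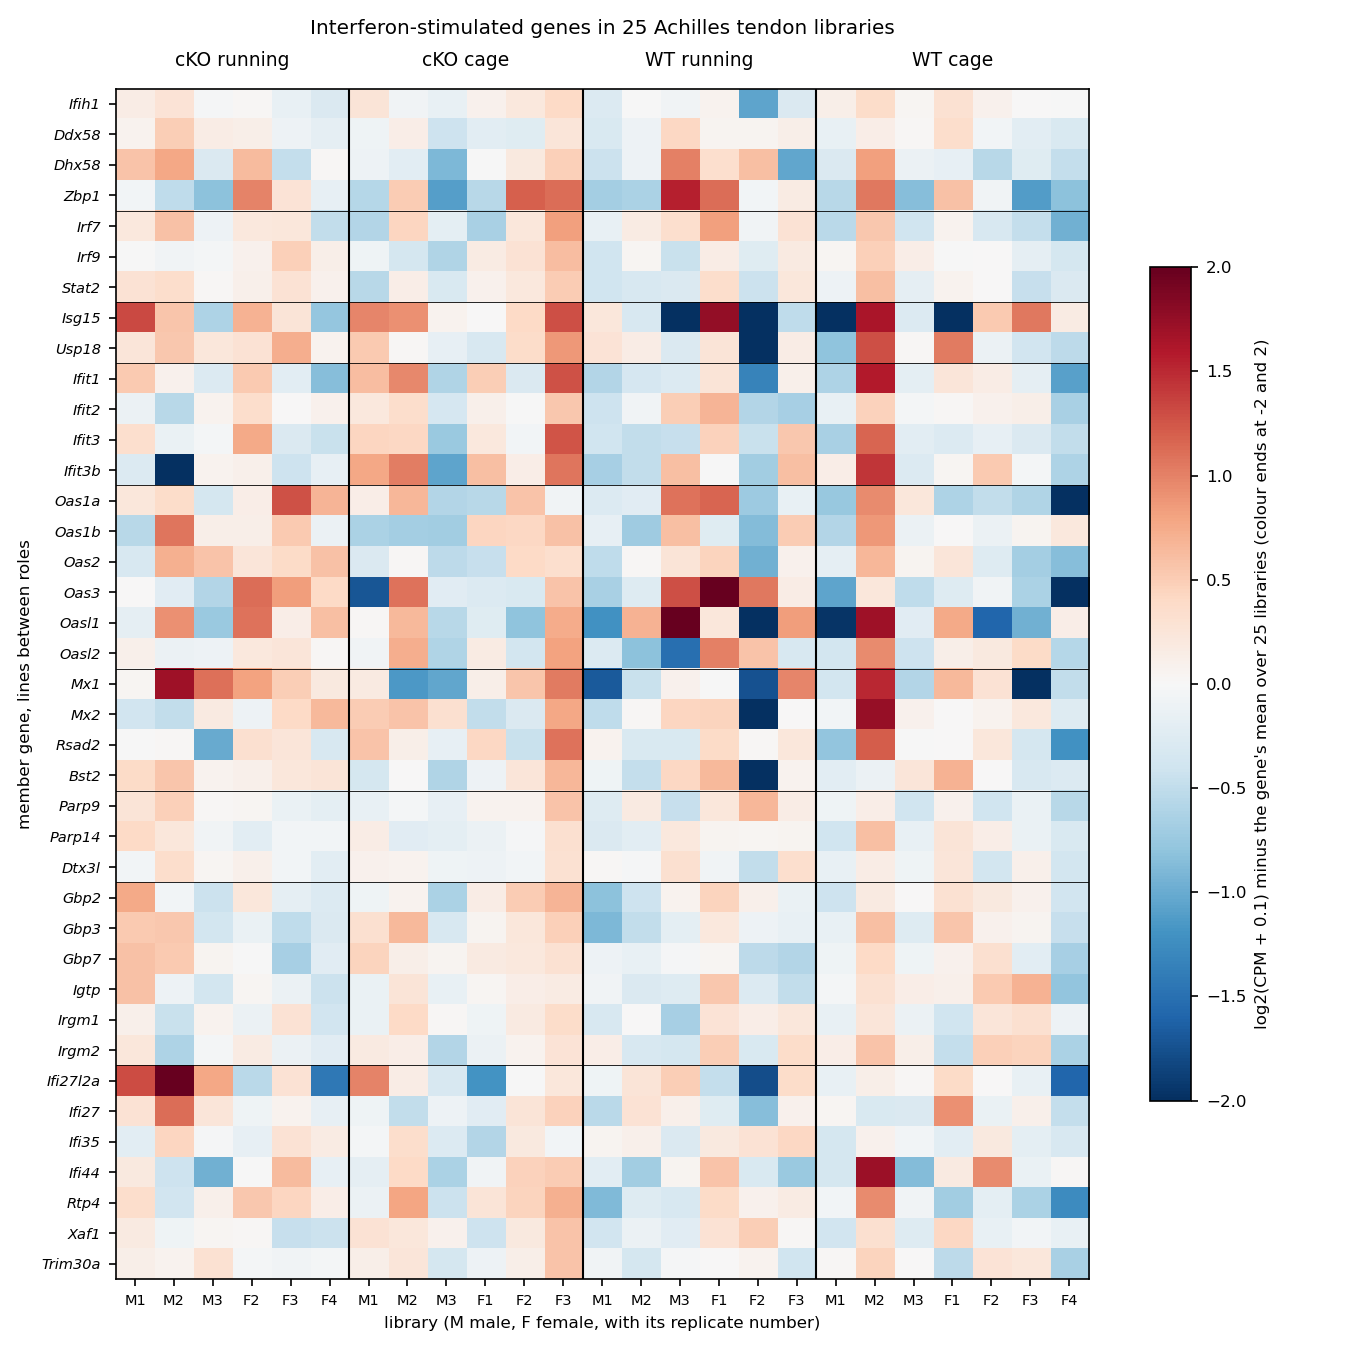
Each cell gives log2(CPM + 0.1) of a member in a library minus that gene's mean over the 25 libraries, with the libraries in their 4 groups and lines between the members' roles. WT cage male replicate 2 (M2) and the library labelled cKO cage female replicate 3 (F3) are red down most of the column, WT cage female replicate 4 (F4) and WT running female replicate 2 (F2) are mostly blue, and no group is of 1 colour.

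Deviations of the members from their group means tended to go together. After the group and sex means were removed, the mean Pearson correlation over the 741 pairs of members was 0.37, and 690 pairs (93.1%) were positive. The mean over pairs of all tested genes was 0.0049. Some other marker lists varied together more, with means of 0.90 for adipocytes, 0.88 for erythroid cells, 0.83 for Schwann cells and 0.74 for muscle. Means were 0.72 within the macrophage markers, 0.53 within the MHC class I genes, 0.49 within the tendon cell markers and 0.44 within endothelial markers. Lower means were found for 64 further interferon-stimulated genes at 0.187, T and NK cell markers at 0.235 and negative regulators at 0.156. Receptors and kinases, signalling factors, sensors and adaptors, chemokines and dendritic cell markers were lower still. These correlations describe 25 libraries in which the genes share depth and scaling, and they carry no test. Within roles the mean correlation was 0.67 among the transcription factors, 0.66 among the IFIT genes, 0.50 among the sensors and 0.47 among the guanylate-binding and immunity-related GTPases, and it was 0.25 among the other induced genes. The closest pairs were Ifit1 with Ifit3 (r = 0.91), Usp18 with Mx2 (r = 0.87), Usp18 with Bst2 (r = 0.83) and Ifih1 with Usp18 (r = 0.82). Ifit1 had the highest mean correlation with the other members (0.55), followed by Irf7 (0.53), and Irgm1 and Ifi35 had the lowest (0.18 each). Ifi27 and Ifi27l2a were close to each other (r = 0.79), while Ifi27 had a mean of 0.20 with all other members.

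**Figure D3:**
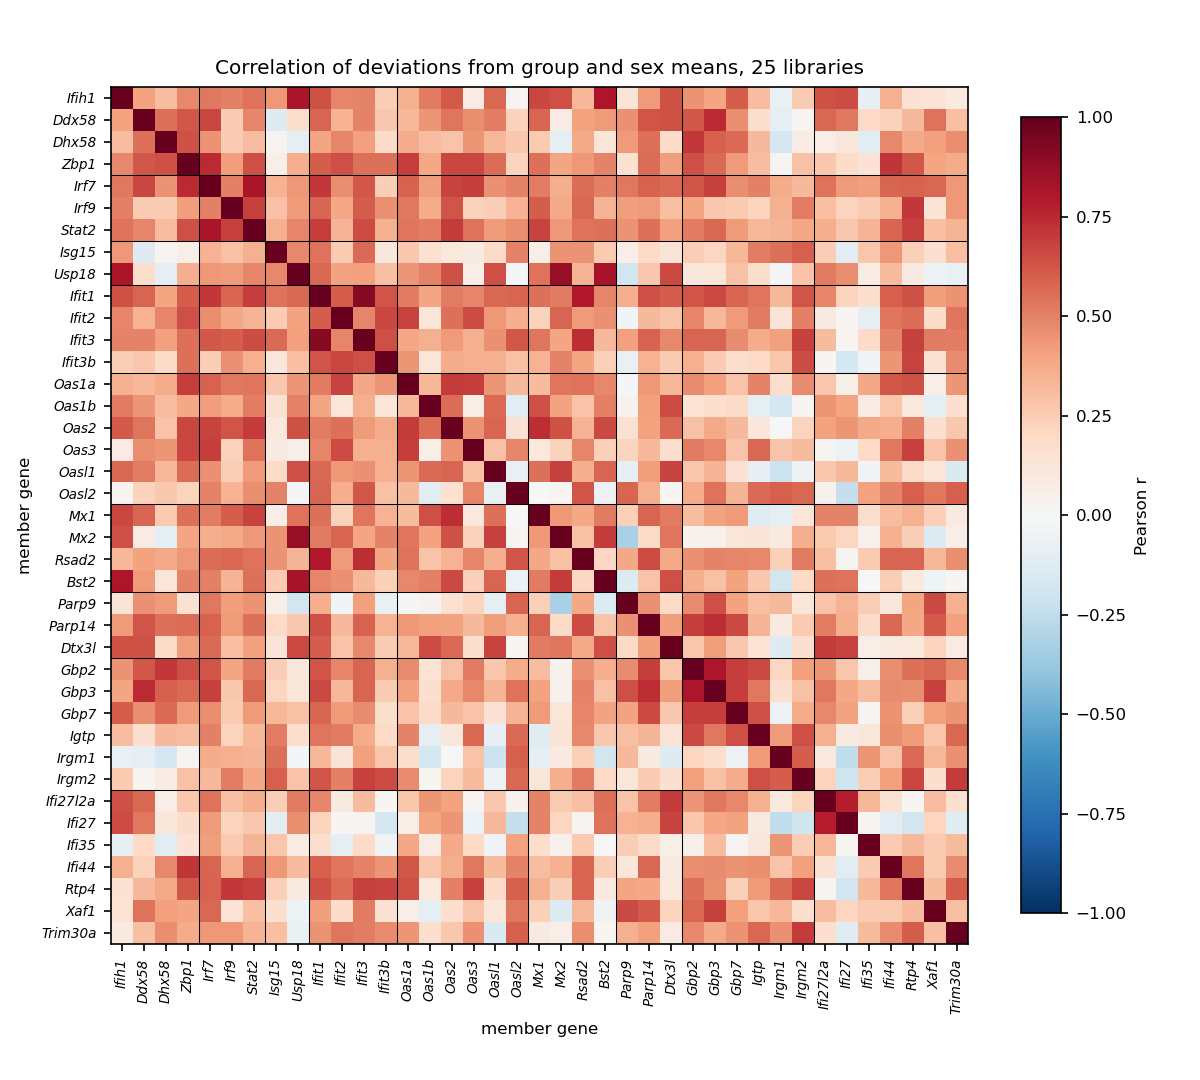
Pearson correlation of the deviations of each pair of members from their group and sex means over 25 libraries, with lines between roles. Most cells are red, 690 of the 741 pairs are positive, and Irgm1, Ifi35 and Ifi27 show the palest rows.

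The mean was also computed in subsets of the libraries. The mean pairwise correlation was 0.37 in the 12 males and 0.36 in the 13 females. It was 0.27 without WT cage male replicate 2 and the library labelled cKO cage female replicate 3, 0.30 without the 2 libraries of the less common name prefix, and 0.41 without WT running female replicate 2 and WT running male replicate 3. Among the transcription factors, the correlations of these deviations were 0.81 for Irf7 and Stat2, 0.68 for Irf9 and Stat2 and 0.51 for Irf7 and Irf9. For a test, log2 CPM was used with the group and sex means left in, and Irf9 and Stat2 had a Pearson r of 0.72 and a Spearman rho of 0.69 over the 25 libraries. The two-sided permutation p-values, adjusted over the 3 pairs of factors, were 6e-05 and 0.00039. The Pearson p before adjustment, 2e-05, is close to the smallest that 100000 permutations can give. Without the 2 libraries farthest from the median of Irf9 the Pearson r was 0.67, and within the 23 libraries of the main name prefix it was 0.69. Irf7 and Stat2 had a Pearson r of 0.66 and a Spearman rho of 0.69, with adjusted permutation p-values of 0.000615 and 0.00039. Their Pearson r was 0.60 without the 2 libraries farthest from the median of Irf7 and 0.65 within the main name prefix. Irf7 and Irf9 had a Pearson r of 0.36 and a Spearman rho of 0.31, with permutation p-values of 0.076 and 0.125, and r of 0.15 without the 2 libraries farthest from the median of Irf7 and 0.27 within the main name prefix.

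The libraries at the ends of this variation belonged to different groups. WT cage male replicate 2 had a mean log2 deviation over the 39 members of 0.72, followed by 0.61 in the library labelled cKO cage female replicate 3. Next was WT running female replicate 1 at 0.40. At the other end were WT running female replicate 2 at -0.68, WT cage female replicate 4 at -0.59, then male replicate 3 of the cKO cage group and male replicate 1 of the WT cage group at -0.39 each. Both libraries with the less common name prefix are among these 4. WT cage male replicate 2 was the highest of all 25 libraries for 10 of the 39 members (25.6%), against 1.61% of all tested genes. Next came cKO running male replicate 2, highest for 8 members (20.5%), against 13.9% of all tested genes, and the library labelled cKO cage female replicate 3 was highest for 6 members (15.4%), against 1.25% of all tested genes. WT running female replicate 2 was the lowest for 12 members (30.8%), against 13.7% of all tested genes, and WT cage female replicate 4 was the lowest for 9 (23.1%), against 4.15%. In the group medians of this mean deviation, cKO runners had 0.17, cKO cage mice 0.10, WT runners -0.07 and WT cage mice -0.15, and the ranges were -0.10 to 0.23 in cKO runners, -0.39 to 0.61 in cKO cage mice, -0.68 to 0.40 in WT runners and -0.59 to 0.72 in WT cage mice.

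Sums of cell type markers were read in the same libraries, in CPM of the library total without the size factors used for the members. In WT cage male replicate 2 the 15 macrophage markers summed to 379 CPM, place 16 of 25 from the top, and the 8 dendritic cell markers summed to 24.5 CPM, place 8. In the library labelled cKO cage female replicate 3 the macrophage markers summed to 620 CPM, place 9, and the dendritic cell markers to 20.3 CPM, place 17. This library had the highest sum of the 6 erythroid markers, at 490 CPM. In cKO running male replicate 2, Ifi27 and Ifi27l2a were highest. Marker sums for tendon cells, macrophages, dendritic cells, B cells, T and NK cells, mast cells and adipocytes were each highest there. The sum of muscle markers was the lowest of the 25 libraries. This library also had the highest size factor, 1.41, by which these sums were not divided. Its places can therefore differ on the members' scale. At the low end, the macrophage markers summed to 498 CPM in WT running female replicate 2, place 11, and to 211 CPM in WT cage female replicate 4, place 22. The muscle markers summed to 168725 CPM, place 4, and 188377 CPM, place 1, in these same libraries, against 147030 CPM, place 7, in WT cage male replicate 2 and 63665 CPM, place 23, in the library labelled cKO cage female replicate 3. Neutrophil, T and NK cell, and B cell markers were scarce throughout, and 1 of 12, 3 of 10 and 2 of 7 of them passed the low-count filter. Across the 25 libraries, the mean correlation of the members' deviations with those of the macrophage markers was 0.25 (585 pairs), with those of 16 genes of MHC class I presentation 0.35 (624 pairs), with those of 64 further interferon-stimulated genes 0.25 (2496 pairs), and with those of the skeletal muscle markers -0.17 (663 pairs). The part of these cells in the variation of the members was not tested.

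The interferons themselves were hardly detected. Of 21 interferon genes listed, 3 had 0 counts in all libraries, including Ifnb1, the interferon beta gene, and a count of 0 allows up to 0.227 CPM in the shallowest library and 0.0656 CPM in the deepest. Ifng, the interferon gamma gene, had 24 counts, all in 1 library. The interferon alpha genes listed had 15 counts or fewer each over the 25 libraries. Ifnk, the interferon kappa gene, was the sole member of this list to pass the filter, with 185 counts in 24 libraries. Ifnz, the interferon zeta gene, had 137 counts in 22 libraries and did not pass it.

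The next question was whether loss of AMPKα1 moves these genes. By count, 0 of the 39 members were called at cage activity by edgeR's quasi-likelihood test with Benjamini-Hochberg adjustment over all tested genes, where 0% of all tested genes were called. At an unadjusted p under 0.05 there were 0 members, against 1.13% of all tested genes, and DESeq2, limma-voom and limma on log2 FPKM also called 0 members. The log2 fold changes of cKO over WT cage mice ran from -0.35 in Ifi44 to 0.77 in Oas3, with a median of 0.09 over the members and 0.00 over all tested genes, and 26 of the 39 were positive. Of all tested genes 50.5% were positive. The ranges of 0 members were apart between cKO cage and WT cage mice, against 0.047% of all tested genes. The 4 members with the smallest p were Rtp4, with a log2 fold change of 0.48 (SE 0.30, adjusted p = 1.00), Parp9 with 0.26 (SE 0.16, adjusted p = 1.00), Gbp7 with 0.21 (SE 0.16, adjusted p = 1.00) and Irf7 with 0.33 (SE 0.26, adjusted p = 1.00). Parp9 had 13.1, 14.8 and 21.8 CPM in cKO cage mice and 9.95, 13.4 and 16.0 in WT cage mice. In fits of each sex alone the members' median was -0.14 in males and 0.32 in females, a difference that was not tested. Without the library labelled cKO cage female replicate 3, which has no Cre counts, the fold change of Irf7 was 0.12, that of Parp9 was 0.14 and the members' median was -0.01. Without WT cage male replicate 2 the fold change of Rtp4 was 0.79, that of Irf7 was 0.53 and the members' median was 0.26, and without WT cage female replicate 4 the fold change of Gbp7 was 0.14 and the median was 0.03. In males alone Rtp4 had -0.18, Parp9 -0.010 and Irf7 -0.0052.

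In runners, too, 0 members were called by edgeR, by DESeq2 (with no adjusted p for 1 member), by limma-voom and by limma on log2 FPKM, and edgeR called 0% of all genes tested. At an unadjusted p under 0.05 there was 1 member (2.56%), Ifi27l2a, against 11.3% of all tested genes. The log2 fold changes of cKO over WT runners ran from -0.68 in Oas3 to 1.11 in Mx1, with a median of 0.16 over the members and 0.01 over all tested genes, and 26 of the 39 were positive. Of all tested genes 51.3% were positive. No member had ranges that did not overlap, against 0.376% of all tested genes. Ifi27l2a had a log2 fold change of 0.84 (SE 0.41, adjusted p = 0.44), with a 95% interval of -0.01 to 1.69. The interval is built more cautiously than the test, so it covers 0 although the unadjusted p was under 0.05. Without cKO running male replicate 2 its fold change was 0.40 on the log2 scale, and that of Ifi27 was 0.225. In females alone the fold change of Ifi27l2a was -0.0084. The members' median was 0.06 without cKO running male replicate 1, 0.07 without WT running male replicate 2, 0.10 without WT running female replicate 3 or without WT running male replicate 1, and 0.26 without WT running female replicate 1. Over all 42 alternative fits, which include each sex alone, this median ran from -0.0084 to 0.29 and was negative in 1 of them. Mx1 had 1.11 (SE 0.56, adjusted p = 0.447), Ifi27 had 0.46 (SE 0.24, adjusted p = 0.462) and Stat2 had 0.32 (SE 0.18, adjusted p = 0.482). Beside these values, all 5 erythroid, 7 mast cell, 8 Schwann cell, 10 endothelial and 7 adipocyte markers tested were positive, with medians of 1.49, 1.11, 1.58, 0.20 and 0.37. The skeletal muscle markers summed to 36299, 80589 and 114041 CPM (lowest, median and highest) in cKO runners and 83590, 135817 and 183708 CPM in WT runners, and the macrophage markers summed to 318, 718 and 1084 CPM in cKO runners and 200.5, 563 and 791 CPM in WT runners. With the muscle markers as a covariate the members' median was 0.13 and 0 were called, and with the macrophage markers it was 0.12 and 0 were called.

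Over cage mice and runners combined, 32 of the 39 members had a positive log2 fold change of cKO over WT, against 50.8% of all tested genes. The members varied together between libraries, so their signs are not independent of each other, and the sign count was not tested. By edgeR, DESeq2, limma-voom or limma on log2 FPKM 0 members were called. The called share of all tested genes was 0.00522%, or 1 gene. The unadjusted p was under 0.05 for 1 member, Gbp7, against 3.78% of all tested genes. The median was 0.11 over the members and 0.00 over all tested genes, with a range from -0.18 in Oasl1 to 0.52 in Mx1. By role, the median was 0.33 for the ISG15 system, 0.17 for the IFIT genes, 0.12 for Mx1, Mx2, Rsad2 and Bst2, 0.11 for the OAS family, the transcription factors and the GTPases alike, 0.05 for Parp9, Parp14 and Dtx3l, 0.03 for the sensors and 0.14 for the other induced genes. Gbp7 had 0.25 (SE 0.12, adjusted p = 0.981), with a 95% interval of 0.01 to 0.49, and Rtp4 had 0.40 (SE 0.21, adjusted p = 0.981). Part of the transcript sequence of both is shared with an overlapping gene, so their counts are uncertain to that extent. Ifi27l2a had 0.46 (SE 0.28, adjusted p = 0.981) and Stat2 had 0.19 (SE 0.12, adjusted p = 0.981). Without cKO running male replicate 2 the fold change of Ifi27l2a was 0.26, and in females alone it was -0.023. The members' median was 0.05 without the library labelled cKO cage female replicate 3, which has no Cre counts, 0.07 without WT cage female replicate 4, 0.18 without WT running female replicate 1 and 0.19 without WT cage male replicate 2. The sign count was 32 of 39 with another scaling of the counts (RLE) and 35 of 39 with log2(FPKM + 1), where 30 of the 39 lay above the median of all tested genes. A typical member had a standard error of 0.19 on the log2 scale in this comparison, larger than this median. In the same comparison 15 of the 15 macrophage markers were positive, with a median of 0.22, and 0 of the 17 skeletal muscle markers, with a median of -0.29. All tested markers of erythroid cells (5, median 0.97), mast cells (7, median 0.72), Schwann cells (8, median 0.60), endothelium (10, median 0.16) and adipocytes (7, median 0.11) were positive as well, and their part in the result was not tested. With the macrophage markers as a covariate the members' median was 0.06, and with the muscle markers it was 0.09.

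**Figure D4:**
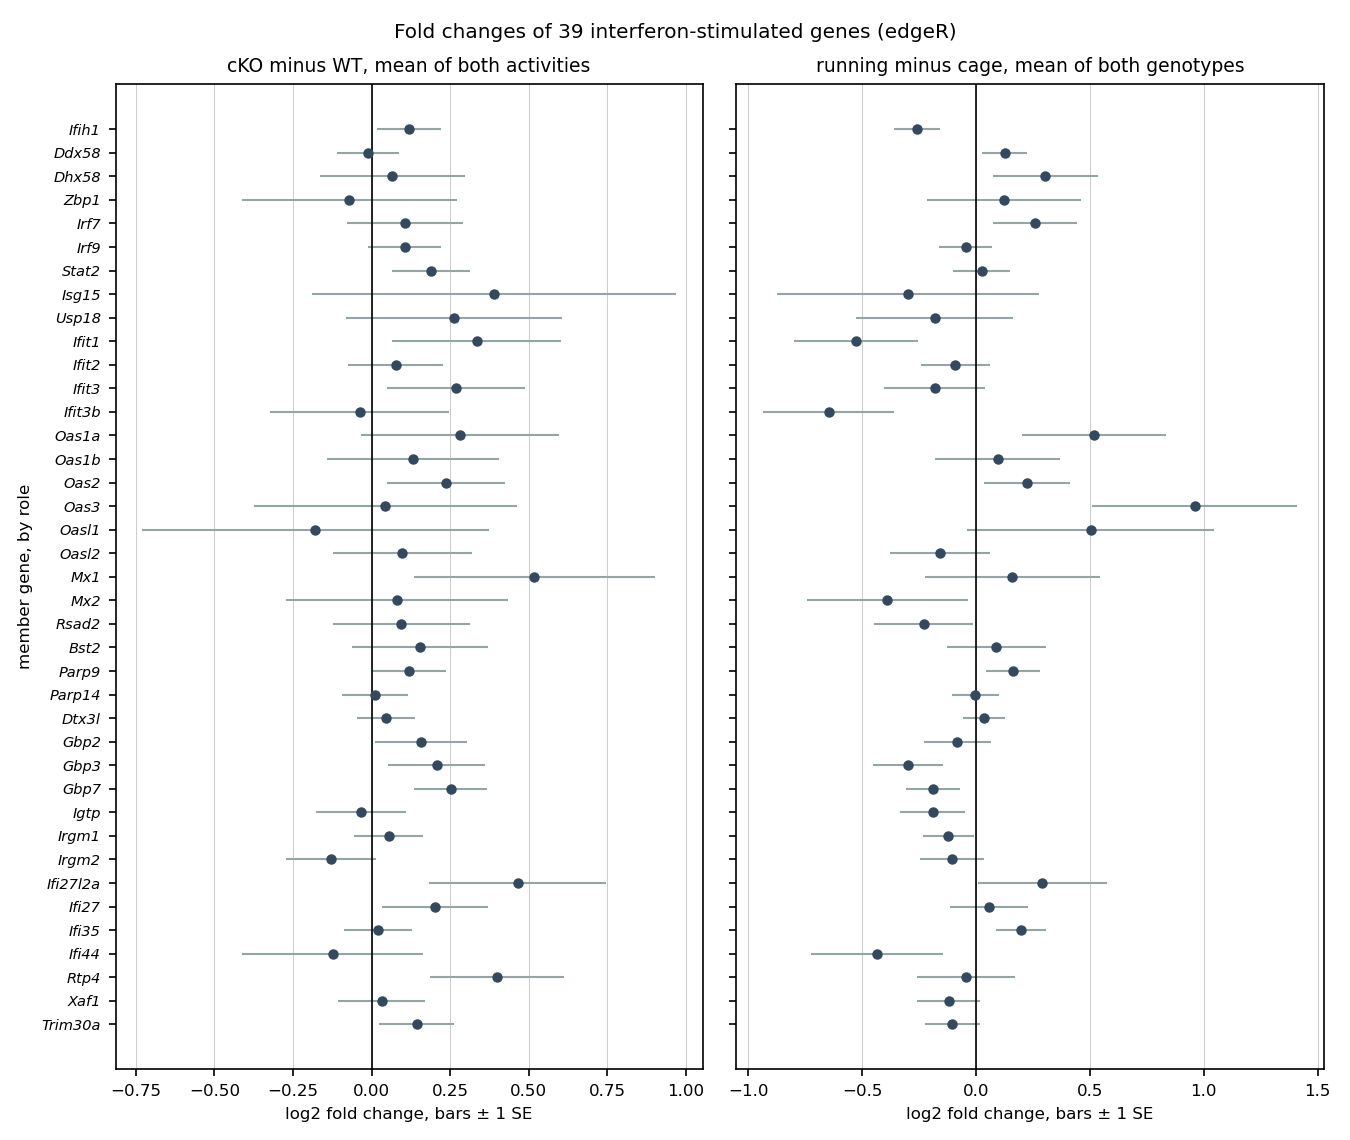
Log2 fold change (edgeR, bars of 1 standard error each way) of the 39 members, ordered by role, for cKO minus WT averaged over both activities (left) and running minus cage averaged over both genotypes (right). Of the 39 points of the left panel 32 lie right of 0, at a median of 0.11, those of the right panel lie on both sides, and none of the 39 was called in either. The members varied together between libraries, so their signs are not independent.

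Wheel running was compared with cage activity within each genotype, and the genotype and running comparisons share their libraries. In WT mice edgeR called 0 members and 0.131% of all tested genes, and DESeq2 (with no adjusted p for 2 members), limma-voom and limma on log2 FPKM also called 0 members. An unadjusted p under 0.05 was found for 2 members (5.13%), Oas3 and Ifih1, against 9.74% of all tested genes. The log2 fold changes of running over cage ran from -0.66 in Ifi44 to 1.68 in Oas3, with a median of -0.09, and 13 of the 39 were positive. Of all tested genes 50.4% were positive. No member's ranges were apart, against 0.543% of all tested genes. Oas3 had 0.166, 0.563 and 1.73 CPM in WT runners and 0, 0.193 and 0.387 in WT cage mice and a log2 fold change of 1.68 (SE 0.62, adjusted p = 0.347). Without WT running female replicate 1, its highest library, the fold change was 1.27 on the log2 scale. Ifih1 had -0.38 (SE 0.14, adjusted p = 0.352), Irf7 had 0.49 (SE 0.26, adjusted p = 0.553) and Parp9 had 0.30 (SE 0.16, adjusted p = 0.577). Without WT running female replicate 2, which held the lowest Ifih1 and the highest Parp9 value, these were -0.255 for Ifih1 and 0.167 for Parp9. In males alone Parp9 had -0.042. The members' median turned to 0.08 without WT cage male replicate 2 and was -0.18 without WT running female replicate 1, with values between these for the other libraries left out. In fits of each sex alone the members' median was -0.28 in males and 0.18 in females, and the difference was not tested.

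In cKO mice edgeR called 0 members and 0.0418% of all tested genes, and the other tools called 0 members. DESeq2 gave no adjusted p for 16 of the members here. Without adjustment, a p under 0.05 was found for 1 member (2.56%), Ifit3b, against 13.6% of all tested genes. The log2 fold changes ran from -0.95 in Ifit3b to 0.75 in Mx1, with a median of -0.07 over the members and 0.03 over all tested genes, and 18 of the 39 were positive. No member's ranges were apart, against 0.887% of all tested genes. Ifit3b had 0.347, 1.91 and 2.41 CPM in cKO runners and 1.02, 3.69 and 4.84 in cKO cage mice and a log2 fold change of -0.95 (SE 0.41, adjusted p = 0.316). Its reads are shared with Ifit3, which had a log2 fold change of -0.29 (SE 0.32, adjusted p = 0.724). Ifi27l2a had 0.67 (SE 0.40, adjusted p = 0.469), Oas2 had 0.44 (SE 0.27, adjusted p = 0.471) and Xaf1 had -0.29 (SE 0.20, adjusted p = 0.522). Without cKO running male replicate 2 the fold change of Ifi27l2a was 0.23 on the log2 scale, and in females alone it was -0.20. The members' median ran from -0.12 without cKO cage male replicate 3 to 0.05 without the library labelled cKO cage female replicate 3 as each library was left out.

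Averaged over both genotypes, edgeR called 0 members and 1.43% of all tested genes for running, and DESeq2 (with no adjusted p for 4 members), limma-voom and limma on log2 FPKM called 0 members. Before adjustment, a p under 0.05 was found for 3 members (7.69%), Ifih1, Ifit3b and Oas3, against 14.9% of all tested genes. The median was -0.04 over the members and 0.01 over all tested genes, and 17 of the 39 were positive. The median ran from -0.11 without WT cage female replicate 4 to 0.02 without WT cage male replicate 2 as each library was left out. All 4 IFIT genes and all 6 GTPases had negative log2 fold changes, with medians of -0.35 and -0.16, while 5 of the 6 OAS genes had positive ones, with a median of 0.36, and a difference between roles was not tested. With log2(FPKM + 0.1), where the median of all tested genes was 0.15 against 0.01 with the counts, 2 of the 4 IFIT genes and 3 of the 6 GTPases were positive, yet none of these 10 lay above the median of all tested genes. Ifih1 had -0.26 (SE 0.10, adjusted p = 0.23), Ifit3b had -0.65 (SE 0.29, adjusted p = 0.285), Oas3 had 0.96 (SE 0.45, adjusted p = 0.311) and Ifit1 had -0.53 (SE 0.27, adjusted p = 0.37). With log2(FPKM + 1) the sign of Ifih1 turned, at 0.045. Without WT cage male replicate 2 the fold change of Ifit1 was -0.29 on the log2 scale. Beside these values, 14 of the 15 macrophage markers were positive for running, with a median of 0.49, and with them as a covariate the members' median was -0.16. All tested markers of Schwann cells (8, median 1.10), mast cells (7, median 0.63) and erythroid cells (5, median 0.35) were positive too. Fewer were positive for tendon cells (2 of 11, median -0.21), muscle (4 of 17, median -0.12) and endothelium (3 of 10, median -0.11). The part of these cells was not tested. In Ifit1 the levels were 1.04, 2.35 and 4.07 CPM in runners and 1.26, 3.10 and 8.60 in cage mice, and in Ifih1 they were 5.53, 11.2 and 14.0 CPM in runners and 10.5, 12.4 and 15.3 in cage mice.

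**Figure D5:**
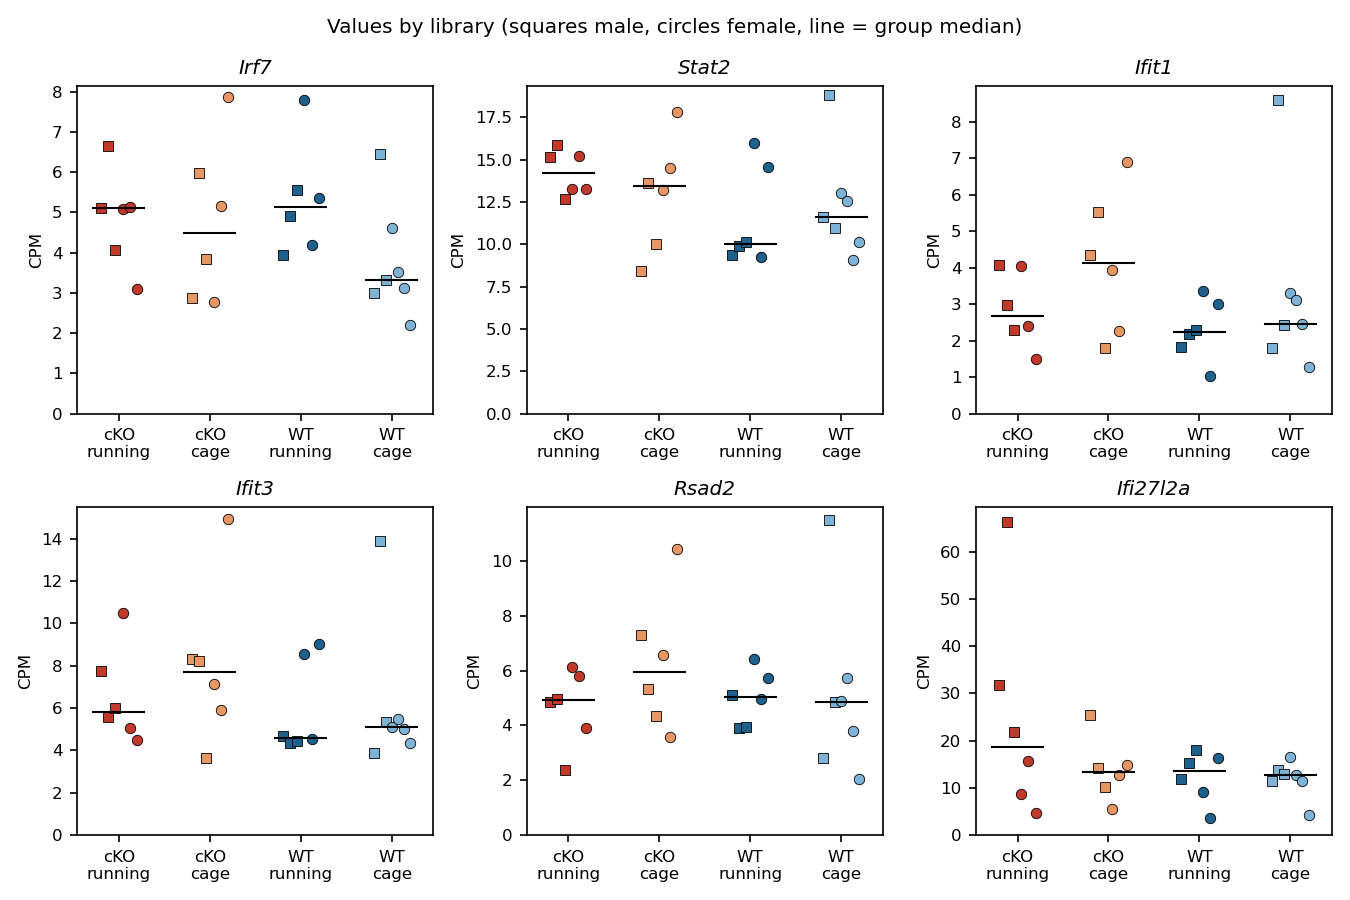
CPM of Irf7, Stat2, Ifit1, Ifit3, Rsad2 and Ifi27l2a in each library by group (squares male, circles female, horizontal line the group median). For Ifit1, Ifit3 and Rsad2 the 2 highest points are 1 library of WT cage mice and 1 labelled cKO cage, and the highest Ifi27l2a point, 66.2 CPM, is a cKO runner.

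The interaction asks whether running had a different effect in cKO than in WT mice. By edgeR 0 members were called, as were 0% of all tested genes, and the other tools called 0 members. The unadjusted p was under 0.05 for 0 members, against 7.19% of all tested genes. The median of the members was 0.02, as it was over all tested genes, and 22 of the 39 were positive. Oas3 had -1.45 (SE 0.89, adjusted p = 0.674), Ifi27 had 0.52 (SE 0.34, adjusted p = 0.681), Mx1 had 1.19 (SE 0.78, adjusted p = 0.681) and Ifi27l2a had 0.75 (SE 0.56, adjusted p = 0.7). Standard errors were large here, 0.38 for the median member. Without cKO cage male replicate 2 Oas3 had -0.81, without cKO running male replicate 2 Ifi27 had 0.27 and Ifi27l2a had 0.285, and without WT cage male replicate 2 Mx1 had 0.78. In females alone Mx1 had -0.30, and with limma-voom Ifi27l2a had -0.058. The members' median ran from -0.10 to 0.15 as each library was left out, the ends being without WT cage male replicate 2 and without the library labelled cKO cage female replicate 3. Fits of each sex alone gave medians of 0.43 in males and -0.31 in females, and the difference between them was not tested.

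Males and females were compared over all groups. By edgeR 0 members and 0.616% of all tested genes were called, while limma-voom called 1 member, Ifi27l2a, and DESeq2 and limma on log2 FPKM called 0. Limma-voom also called more genes in all, 442 of the 19155 tested against 118 by edgeR. An unadjusted p under 0.05 was found for 2 members (5.13%), Ifi27l2a and Gbp7, against 10.1% of all tested genes. The median log2 fold change of males over females was -0.04, and 17 of the 39 were positive. The median ran from -0.11 without WT cage male replicate 2 to 0.02 without WT running female replicate 1 or without the library labelled cKO cage female replicate 3. Ifi27l2a had 10.2, 14.7 and 66.2 CPM in males and 3.64, 11.5 and 16.6 in females, with the 3 highest values in males, and a log2 fold change of 0.83 (SE 0.29, adjusted p = 0.274). Without cKO running male replicate 2 its fold change was 0.665 on the log2 scale. Gbp7 had 0.26 (SE 0.12, adjusted p = 0.428), Gbp2 had -0.26 (SE 0.15, adjusted p = 0.592) and Irf9 had -0.20 (SE 0.12, adjusted p = 0.602).

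Other genes of the pathway were read from lists. Of 9 receptors and kinases 8 were tested, and so were all 7 of the further signalling factors, 13 of 13 nucleic acid sensors and adaptors, 5 of 5 negative regulators, 64 of 69 further interferon-stimulated genes, 16 of 16 MHC class I presentation genes and 5 of 6 interferon-induced chemokines. By edgeR 0 genes of any of these lists were called in any of the 8 comparisons. For cKO over WT averaged over activities, the genes with the smallest p were the receptor gene Ifnar2 at 0.17 on the log2 scale, the factor Irf1 at 0.23, the ubiquitin ligase gene Trim25 at 0.17, the negative regulator Pias1 at 0.16, Slfn5 at 0.24, the proteasome activator gene Psme2 at 0.24 and the chemokine Ccl2 at 0.43, each with an edgeR adjusted p of 0.981. Of the 64 further interferon-stimulated genes 47 were positive in this comparison, with a median of 0.09, and of the 16 MHC class I genes 13 were positive, with a median of 0.15. For running over cage averaged over genotypes, the receptor kinase Tyk2 had 0.32 (adjusted p = 0.152), the factor Irf5 0.50 (adjusted p = 0.0942), the endosomal sensor Tlr7 0.73 (adjusted p = 0.226), the phosphatase Ptpn2 -0.33 (adjusted p = 0.149), Gbp6 -0.53 (adjusted p = 0.0818), Tapbp 0.22 (adjusted p = 0.389) and the chemokine Cxcl10 0.32 (adjusted p = 0.664), all on the log2 scale. Of the 64 further genes 36 were positive for running, with a median of 0.03.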

How the data were processed

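RNA-seq was done on 25 mouse Achilles tendon libraries. Per the submitters' processing notes, reads were handled with RSEM 1.3.3, STAR 2.7.8a, cutadapt 2.3 and FastQC 0.11.8 on the genome build GRCm38 (mm10). The authors deposited expected counts per gene, which are whole numbers as deposited, and FPKM per gene, also as deposited; the annotation release and strand are not given in the sources used here. Library totals were 13193228 to 45724243 counts.

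The members and lists were chosen with earlier results of these data known. Genes passing filterByExpr (minimum count 10, 19155 of 55487, with 4 added reporter entries left out) were fitted with edgeR 4.0.16 (R 4.3.3), using TMM scaling, 4 group means and a sex term, in 8 quasi-likelihood contrasts with Benjamini-Hochberg adjustment over all tested genes at 0.05. The counts were fitted as deposited. The edgeR step was also run on simulated counts with known changes. Intervals are 95%. Levels within a gene are TMM-scaled CPM computed from the counts; the plan had named FPKM, but its library sums ran from 915490 to 1949000, so FPKM orders genes by level and serves in limma 3.58.1 as an alternative. DESeq2 1.42.0 and limma-voom were further alternatives, as were other scaling, filters, covariates, each sex alone, a replicate block and leaving out libraries.

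In each comparison the members named were those called or, where fewer than 4 were, the 4 with the smallest p, and levels were given in full for a list of 28 members. Pathway genes are named for the 2 averaged comparisons as those with the smallest p per list. Correlations were computed on log2 CPM after removing group and sex means, except the permutation tests of the 3 pairs of transcription factors, which used log2 CPM as it stands. Members outside this rule are named for the highest or lowest value or correlation, and were chosen after their values were seen. All libraries carry the same batch label; 2 carry another name prefix.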

Additional observations from a re-analysis of the deposited data

Results flagged for a closer look

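In 156 sets of a member and a group, the highest or lowest library was compared with the rest by Dixon's criterion, and 20 stood apart. The 95% criterion marks about 1 in 20 sets by chance where sets are independent, and these are not, since members varied together. Of these, 9 were WT cage male replicate 2 above the other WT cage libraries. Its CPM was 3.61 for Dhx58 (others 1.33 to 1.85), 18.8 for Stat2 (others 9.05 to 13.1), 8.60 for Ifit1 (others 1.26 to 3.31) and 13.9 for Ifit3 (others 3.88 to 5.50). It was 6.23 for Ifit3b (others 1.42 to 3.29), 1.55 for Oas1b (others 0.506 to 0.948), 4.69 for Mx2 (others 1.11 to 1.56), 11.5 for Rsad2 (others 2.05 to 5.72) and 4.69 for Rtp4 (others 0.948 to 2.29).

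Among cKO runners, Irf9 was 16.3 CPM in female replicate 3 (others 11.1 to 12.7), Igtp was 12.2 CPM in male replicate 1 (others 5.99 to 8.31), and male replicate 2 had 0.347 CPM of Ifit3b (others 1.67 to 2.41) and 46.4 CPM of Ifi27 (others 19.1 to 26.1). Parp9 was 21.8 CPM in the library labelled cKO cage female replicate 3, the other cKO cage libraries having 13.1 to 15.4 CPM.

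Among WT runners, female replicate 1 had 1.89 CPM of Isg15 (others 0 to 0.583) and 11.8 CPM of Igtp (others 5.73 to 7.70), female replicate 2 had 0 CPM of Usp18 (others 1.68 to 2.54), and male replicate 3 had 2.50 CPM of Oasl1 (others 0 to 0.826). In WT cage mice, Ifi27l2a was 4.19 CPM in female replicate 4 (others 11.4 to 16.6) and Ifi27 was 40.2 CPM in female replicate 1 (others 15.3 to 22.8). Cre, outside the gene comparisons, reached 42 counts in the cKO libraries, and was 0 in every WT library and in the library labelled cKO cage female replicate 3.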

How the results depend on the processing

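Over 42 alternative fits, 25 of them leaving out a library, at most 1 member was called in any comparison. That member, Ifi27l2a, was called for cKO over WT runners without the low-count filter (1 member, log2 fold change 0.85), and for males over females without the filter (1 member, 0.83) and with limma-voom (1 member, 0.93). For males over females limma-voom called 442 of all 19155 tested genes. The number of all genes called without the filter is not given here. Of 1325 fits of members named by a comparison, 12 changed sign. With males only, cKO over WT at cage activity was -0.18 for Rtp4, -0.010 for Parp9 and -0.0052 for Irf7, running over cage in WT was -0.042 for Parp9, and the median interaction was 0.43. With females only, Ifi27l2a had -0.0084 for cKO over WT runners, -0.023 averaged over activities and -0.20 for running in cKO, and Mx1 had -0.30 for the interaction. For running averaged over genotypes, Ifih1 was 0.045 with log2(FPKM + 1), with and without the filter, and 0.044 with log2(FPKM + 0.1). On the log2(FPKM + 1) scale the median of all tested genes moved by 0.11 for cKO over WT runners, 0.15 for running in cKO and 0.13 for the interaction, and positive members numbered 34, 31 and 27, of which 28, 19 and 18 exceeded the all-gene median. The interaction of Ifi27l2a was -0.058 with limma-voom. The cause was not tested.

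Leaving out each library in turn, 0 members were called, and the median log2 fold change ran from -0.015 to 0.26 for genotype at cage activity, 0.065 to 0.27 in runners, 0.047 to 0.19 averaged, -0.18 to 0.077 for running in WT, -0.12 to 0.051 in cKO, -0.11 to 0.018 averaged, -0.098 to 0.15 for the interaction and -0.11 to 0.018 for sex. With the replicate block, 0 members were called in every comparison but that of sex, whose term the block replaces. Same-numbered libraries had correlations of -0.31 to 0.090, and 6 of 25 libraries correlated best with their own number. These values gave no sign of pairing by number, but they cannot show that the mice were unpaired. Depth limits Oas3, Oasl1 and Isg15, with medians of 8, 11 and 14 counts.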
